A study of Macaca mulatta with 12 samples.

Results

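Cadherins and neural adhesion molecules were followed on a human expression array read with RNA of the dorsal raphe nucleus, a midbrain cell group rich in serotonin neurons that project to the forebrain. The members were the probe sets whose only gene symbol belonged to the cadherins (CDH), protocadherins (PCDH), catenins (CTNN), neural cell adhesion molecules (NCAM), contactins (CNTN), neurexins (NRXN) or neuroligins (NLGN), or was LSAMP, L1CAM, NRCAM, OPCML or NEGR1. The rule used gene symbols and no measured value. It found 75 of the 12625 probe sets on the array, from 48 genes, and 16 of these genes had more than 1 probe set. Another 4 probe sets that listed several symbols were left out. CDH10, CDH13, NLGN3 and NEGR1 were not analysed here.

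The animals were 12 female rhesus macaques, each read on 1 human U95A Affymetrix array, in 4 groups of 3. Every monkey carried Silastic capsules under the skin for 1 month. The groups received placebo, estrogen alone, progesterone alone, or the combination, called estrogen plus progesterone. The placebo labels carry the code OVX, the usual abbreviation for ovariectomy. No label gives the animals' age or a dose. The labels of the progesterone arrays are not uniform: the title says progesterone with a code (EP1, EP2, EP3) that is also used for the combination, whereas the source name says P1, P2 or P3. Grouping followed the source name.

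Cadherins bind the same or related cadherins on the neighbouring cell, and catenins tie their inner ends to the actin skeleton. Protocadherins are relatives that lack the catenin-binding tail of classical cadherins and are prominent in neurons. Members of the immunoglobulin superfamily such as NCAM, L1, contactins and the IgLON proteins LSAMP and OPCML guide axons and hold membranes together. Neurexins on the presynaptic side bind neuroligins on the postsynaptic side.

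The measurement was an intensity per probe set, already scaled by the authors. It was tested as log2(intensity + 8.257) with limma over all arrays, with p-values adjusted by Benjamini-Hochberg over the 7535 probe sets bright enough to test. Of the members, 54 probe sets from 37 genes passed this filter, which kept probe sets of a mean intensity of about 49.5 or more over all arrays. The other 21 were too dim, and 11 genes had no tested probe set: CDH3, CDH5, CDH17, CDH19, CNTN5, CTNND1, NCAM2, NLGN4Y, PCDHB11, PCDHGA8 and PCDHGA12. Because human probes read macaque RNA, an intensity also depends on sequence match, and the level of one probe set says nothing of the level of another. In tissue RNA, fewer cells of a type and less RNA per cell cannot be told apart.

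Quality differed between the arrays. Estrogen array 1 and estrogen plus progesterone array 1 read 841 and 1354 for a 28S ribosomal control, against at most 179 on the other 10 arrays. Their 3' to 5' ratios of the GAPDH control were 2.45 and 2.05, against 0.892 to 1.46 on the other 10. These 2 arrays were together the highest of the 12 for 5 of the 54 tested members (9.26%) and together the lowest for 3 (5.56%). Over all tested probe sets these shares were 10.3% and 7.38%, so the members' shares were below those of the whole array. The 5 belonged to CDH1, CDH2, CDH6, CDH15 and NCAM1, and the 3 to CDH11, CTNNA1 and CTNNBIP1. Placebo array 1 was the lowest of the 12 for 12 of the 54 members and for 1073 of the 7535 tested probe sets.

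No member passed the adjusted threshold of 0.05 in any of the 6 comparisons or in the F test of limma over the 4 groups. The differences are therefore given as higher or lower readings with their errors, and none is a call. At an unadjusted p under 0.05, the members' share was above that of all tested probe sets in each of the 6 comparisons, by the smallest margin with estrogen, at 3.7% against 3.16%. The lowest adjusted p among the members was 0.141, for LSAMP with progesterone. The F test gave 11 of 54 members an unadjusted p under 0.05 (20.4%), against 5.79% of all tested probe sets. At the adjusted threshold 0.0531% of all tested probe sets passed that F test, none of them a member, and the lowest adjusted p of a member was 0.214, again for LSAMP.

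**Figure D1:**
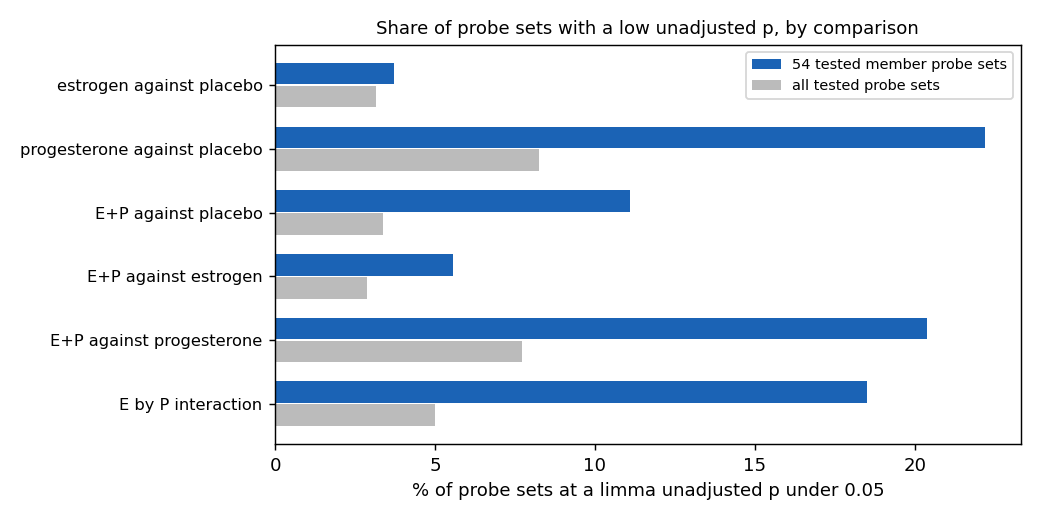
Percent of probe sets with a limma unadjusted p under 0.05 in each comparison (horizontal axis), for the 54 tested members (blue) and all 7535 tested probe sets (grey); E is estrogen, P progesterone and E+P both. The widest gaps are in the 2 comparisons with the progesterone group, at 22.2% against 8.24% and 20.4% against 7.71%, and in the interaction, at 18.5% against 4.99%, followed by both hormones against placebo, at 11.1% against 3.38%; the members' probe sets share genes and arrays, and these comparisons share arrays.

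With progesterone alone, LSAMP, PCDH9, CDH8 and CDH16 read higher than with placebo, and CTNNA2 and NRXN2 read lower. At an unadjusted p under 0.05 there were 12 of the 54 members (22.2%), 6 higher and 6 lower, from 11 genes, against 8.24% of all tested probe sets. Past the adjusted threshold there was no member, against 0.0398% of all. The progesterone and placebo arrays did not overlap for 17 members (31.5%), 8 higher and 9 lower, against 16.8% of all tested probe sets. The median log2 change was 0.05 over the members and 0.0022 over all tested probe sets. The members' median was 0.0028, 0.0168 and 0.0124 without placebo arrays 1, 2 and 3 in turn, and it was smaller than the spread of 0.0521 (SD) of such medians between arrays of a group. The median size of the change, without its sign, was 0.32 for the members and 0.19 for all.

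**Figure D2:**
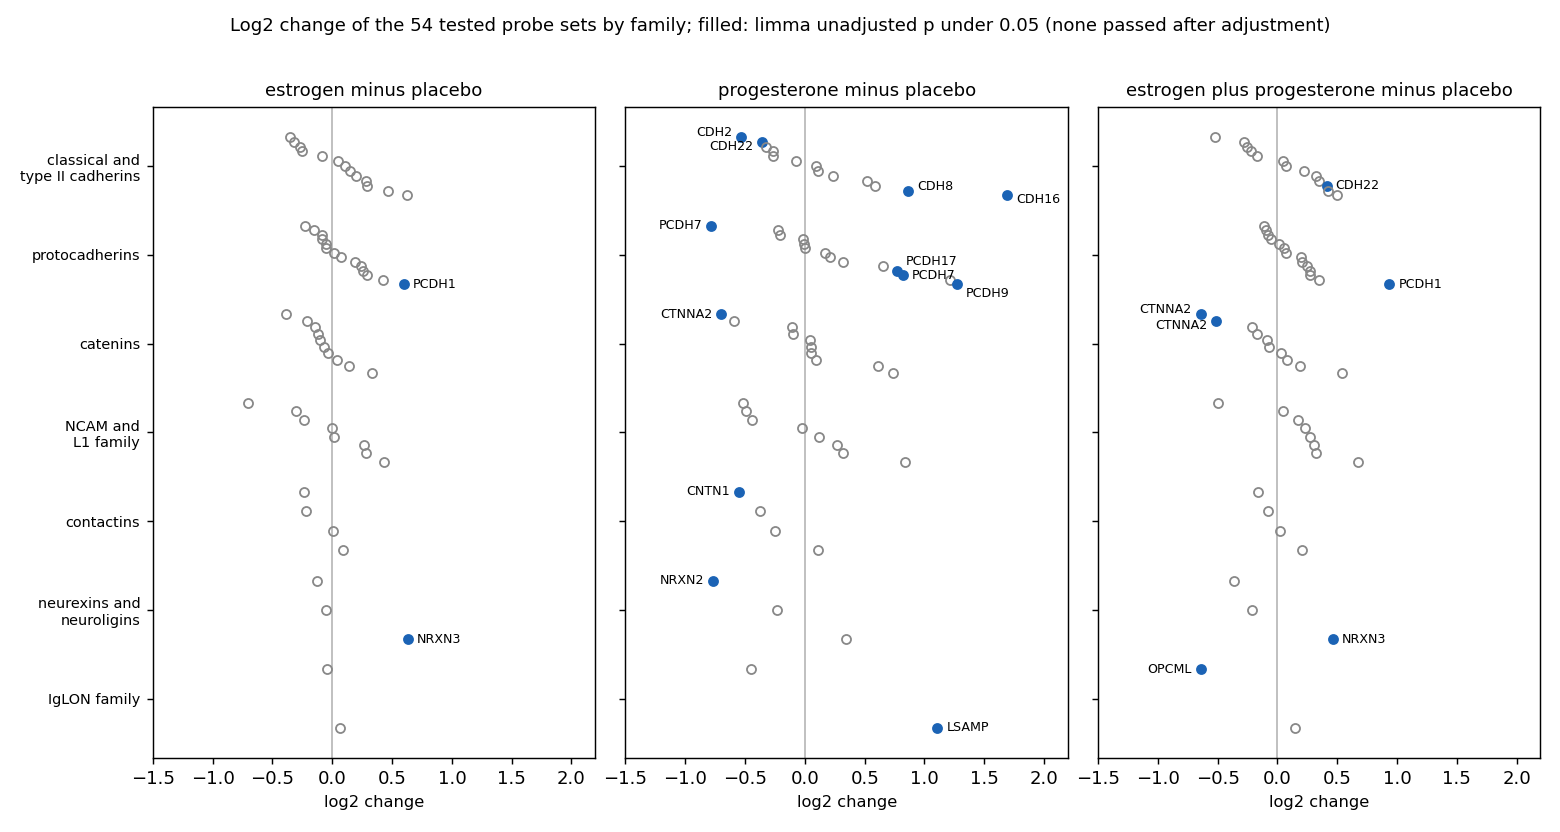
Log2 change against placebo (horizontal axes) of the 54 tested members in 7 families (vertical axis) with estrogen, progesterone and both hormones; each point is 1 probe set, and filled, named points have a limma unadjusted p under 0.05. In the progesterone panel the members ran from -0.78 for a probe set of PCDH7 to 1.69 for CDH16, and points on both sides of 0 appear in every family.

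LSAMP, the limbic system-associated membrane protein, is an IgLON protein anchored in the outer membrane of neurons that steers growing axons. It read 72.8, 95.9 and 106.5 with placebo, 94.7, 87.3 and 84.1 with estrogen, 104.0, 96.5 and 112.3 with both hormones, and 263.3, 151.0 and 214.7 with progesterone alone. The 3 progesterone arrays lay above all the other 9, and the combined arrays lay above the estrogen arrays. The log2 change from placebo was 1.11 ± 0.20 (SE, n = 3 per group, adjusted p = 0.141 by limma). The second IgLON member, OPCML, read lower, with 463.8, 399.5 and 252.9 against 493.9, 467.0 and 542.9 with placebo. The gap between its groups was small next to the spread of its progesterone arrays, and its log2 change was -0.45 ± 0.22 (SE).

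PCDH9, a protocadherin of the delta type that is abundant in brain, read higher with progesterone by all 3 of its probe sets. The probe set of middle brightness read 120.2, 173.2 and 192.4 with placebo and 358.1, 452.8 and 387.1 with progesterone, and these arrays did not overlap. Estrogen gave 195.1, 188.0 and 175.2. With both hormones, array 1 read 371.3 and the other two read 168.5 and 141.6, so the array of high ribosomal signal alone sat in the progesterone range. The log2 change from placebo was 1.27 ± 0.30 (SE, adjusted p = 0.270 by limma). Leaving out both arrays of high ribosomal signal brought that adjusted p to 0.0423, at a log2 change of 1.28. In that fit 11 of all 7535 tested probe sets passed the adjusted threshold, against 3 in the main fit.

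The brightest probe set of PCDH9 read 2822, 5297 and 3961 with progesterone, above all 9 other arrays. Among those others, placebo array 1 at 590.2, estrogen array 1 at 793.8 and estrogen plus progesterone array 1 at 1188 lay far under their group mates, which read 2136 to 2731. Its log2 change with progesterone was 1.22 ± 0.58 (SE, adjusted p = 0.635 by limma), an error set by this spread. The dimmest changed by 0.65 ± 0.33 on the log2 scale and overlapped placebo. Its placebo mean was 43.0 and its progesterone mean 72.6, so it passed the filter only with its brighter groups counted.

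PCDH7, a protocadherin made in several forms that differ at their inner end, gave opposite readings with progesterone from its 2 probe sets. The dimmer read 53.9, 44.6 and 84.5 with placebo and 99.2, 108.3 and 128.9 with progesterone, a log2 change of 0.82 ± 0.24 (SE, adjusted p = 0.380 by limma). The brighter read 228.3, 329.8 and 316.3 with placebo and 204.6, 172.6 and 121.4 with progesterone, a change of -0.78 ± 0.23 (adjusted p = 0.396 by limma). In both, placebo and progesterone arrays did not overlap, and for the brighter probe set the progesterone arrays also lay below every other array. No single direction can be given for this gene.

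PCDH17, a protocadherin of synapses, read 651.2, 203.0 and 281.6 with progesterone against 142.3, 227.2 and 224.8 with placebo. Progesterone array 1 alone set the group mean, and array 2 lay inside the placebo range. The log2 change was 0.77 ± 0.33 (SE, adjusted p = 0.573 by limma). The rule for named genes covers PCDH17 by its level alone, and its change is given after its values were seen. PCDH8, a protocadherin taken into the cell on synaptic activity, differed little, at -0.22.

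**Figure D3:**
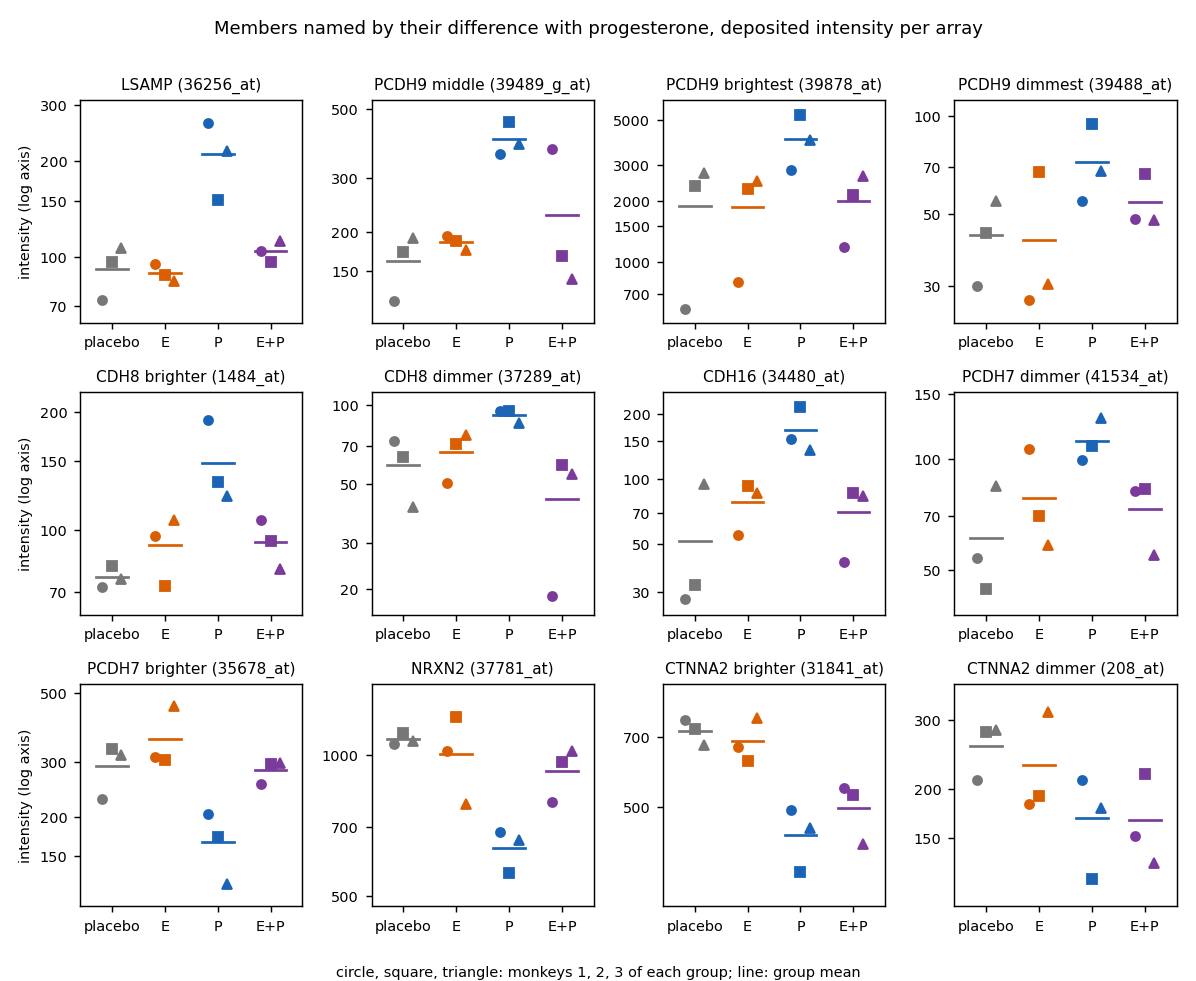
Deposited intensity (vertical axes, log scale) in each of the 12 arrays for 12 probe sets named by their difference with progesterone, or belonging to the same genes, by group (horizontal axes; E estrogen, P progesterone, E+P both); symbols are monkeys 1 to 3 and lines are group means. The progesterone arrays of LSAMP, at 151.0 to 263.3, and of the brighter CDH8 probe set, at 122.2 to 190.2, sit above every other array, and those of NRXN2 below, at 558.0 to 682.5.

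CDH8, a type II cadherin of forebrain circuits, read higher with progesterone by both tested probe sets. The brighter read 71.9, 81.4 and 75.5 with placebo and 190.2, 132.4 and 122.2 with progesterone, above all 9 other arrays, a log2 change of 0.86 ± 0.20 (SE, adjusted p = 0.270 by limma). The dimmer read 73.0, 63.7 and 40.9 with placebo and 94.92, 94.99 and 85.15 with progesterone, again above all others. Its log2 change was 0.59 ± 0.37 (adjusted p = 0.730 by limma). The third probe set of CDH8 was at or under 9.08 in every array and was not tested.

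CDH16, a cadherin best known from kidney epithelium, had the highest log2 change among the members with progesterone. It read 27.9, 32.4 and 94.5 with placebo, 55.3, 92.8 and 85.7 with estrogen, 41.2, 86.0 and 83.9 with both hormones, and 153.5, 213.6 and 136.4 with progesterone. The progesterone arrays lay above all others, while placebo array 3 lay above every estrogen array. The log2 change from placebo was 1.69 ± 0.41 (SE, adjusted p = 0.302 by limma), and it was 2.14 without placebo array 3.

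CDH22, a cadherin of pituitary and brain, read lower with progesterone than in any other group. It read 152.4, 166.8 and 159.5 with placebo, 139.1, 113.3 and 115.9 with progesterone, 225.8, 197.2 and 172.9 with estrogen, and 220.2, 200.6 and 231.2 with both hormones. The progesterone arrays lay below all 9 others, and the arrays of both estrogen-carrying groups lay above placebo. The log2 change with progesterone was -0.36 ± 0.15 (SE, adjusted p = 0.563 by limma). It is named by the rule in other comparisons, not in this one.

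N-cadherin, encoded by CDH2, is the main classical cadherin of neural tissue and synapses, and its probe sets differed. The dimmer read 123.2, 110.5 and 101.1 with placebo and 59.67, 80.63 and 85.04 with progesterone, a log2 change of -0.53 ± 0.21 (SE, adjusted p = 0.531 by limma). The brighter read 1301 to 1538 with placebo and 1487 to 1665 with progesterone, a change of 0.11 ± 0.19 with overlapping arrays. Of the remaining classical and type II cadherins, CDH1, CDH6, CDH11, CDH12, CDH15 and CDH18, no tested probe set reached an unadjusted p under 0.05 with progesterone. E-cadherin (CDH1) read 63.03 to 90.65 with placebo and 94.6 to 126.5 with progesterone, without overlap, and 186.1 and 146.5 on the 2 arrays of high ribosomal signal. CDH11, a type II cadherin of mesenchyme and brain, read 323.1 to 447.0 with placebo and 301.6 to 385.5 with progesterone by its brighter probe set.

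Among the catenins, the neuronal alpha-catenin CTNNA2, which joins the cadherin complex to actin, read lower by both probe sets. The brighter read 760.5, 726.7 and 674.7 with placebo and 493.8, 365.9 and 452.4 with progesterone. Those groups were far apart, and the estrogen arrays, at 669.0, 623.7 and 766.4, lay around placebo. The log2 change with progesterone was -0.70 ± 0.17 (SE, adjusted p = 0.313 by limma). The dimmer read 211.5, 279.8 and 282.8 with placebo and 210.9, 118.2 and 179.0 with progesterone, a change of -0.60 ± 0.28 (adjusted p = 0.619 by limma), with groups separated only by the narrowest margin.

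Beta-catenin (CTNNB1), which binds cadherin tails and also carries the Wnt signal, read 2432 to 2896 with placebo and 2297 to 2821 with progesterone. Its groups overlapped, at -0.11 on the log2 scale with progesterone, and its F test adjusted p was 0.996. CTNND2, the neural delta-catenin, read 136.2 to 205.0 with placebo and 145.0 to 176.3 with progesterone. CTNNA1, the widely made alpha-catenin, had 4 tested probe sets whose progesterone changes ran from -0.10 to 0.74 on the log2 scale, none under an unadjusted p of 0.05. The widest came from a probe set whose placebo arrays alone read 291.6, 174.6 and 33.4.

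NRXN2, a presynaptic neurexin, read lower with progesterone. It read 1052, 1113 and 1072 with placebo and 682.5, 558.0 and 657.3 with progesterone, below all 9 other arrays. The placebo arrays were tightly grouped, and the log2 change was -0.77 ± 0.19 (SE, adjusted p = 0.313 by limma). NRXN3 differed the other way, by 0.35 ± 0.20, with overlapping arrays. The postsynaptic partner NLGN1 read 225.8 to 253.2 with placebo and 191.3 to 207.2 with progesterone, which did not overlap, at -0.23 on the log2 scale.

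CNTN1, a contactin of axons and their nodes, read 1151, 801.8 and 863.0 with placebo and 844.4, 525.3 and 536.9 with progesterone by its brighter probe set. Progesterone array 1 lay inside the placebo range and the other two below it, for a log2 change of -0.55 ± 0.22 (SE, adjusted p = 0.537 by limma). Its dimmer probe set gave -0.38 ± 0.22. CNTN2, the contactin of the juxtaparanode beside the node of Ranvier, read 932.0 to 1529 with placebo and 1210 to 1502 with progesterone.

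The NCAM and L1 family had 8 tested probe sets of 3 genes, and none reached an unadjusted p under 0.05 with progesterone. NCAM1, whose RNA is spliced into several forms, gave 4 tested readings, of 0.84, 0.27, -0.45 and -0.49 on the log2 scale. NRCAM, an L1 relative at the node of Ranvier, gave 0.32, 0.12 and -0.02. L1CAM, which promotes axon growth, read 586.2, 940.4 and 714.5 with placebo and 780.2, 306.4 and 539.5 with progesterone, a change of -0.51 ± 0.32.

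Probe sets of a gene did not always move together. Of the 11 genes with 2 or more tested probe sets, all probe sets had the same sign in 5 with progesterone and were mixed in the other 6. The same count was 5 with estrogen and 5 with both hormones. CDH8, CTNNA2, PCDH9 and CNTN1 had 1 sign with progesterone, and CDH2, PCDH7 and NCAM1 had both. Probe sets with the suffixes _s, _f or _g can share probes with related sequences or with each other, so the dimmest and middle probe sets of PCDH9, and likewise the pairs of CDH2 and CNTN1, are not independent readings.

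**Figure D4:**
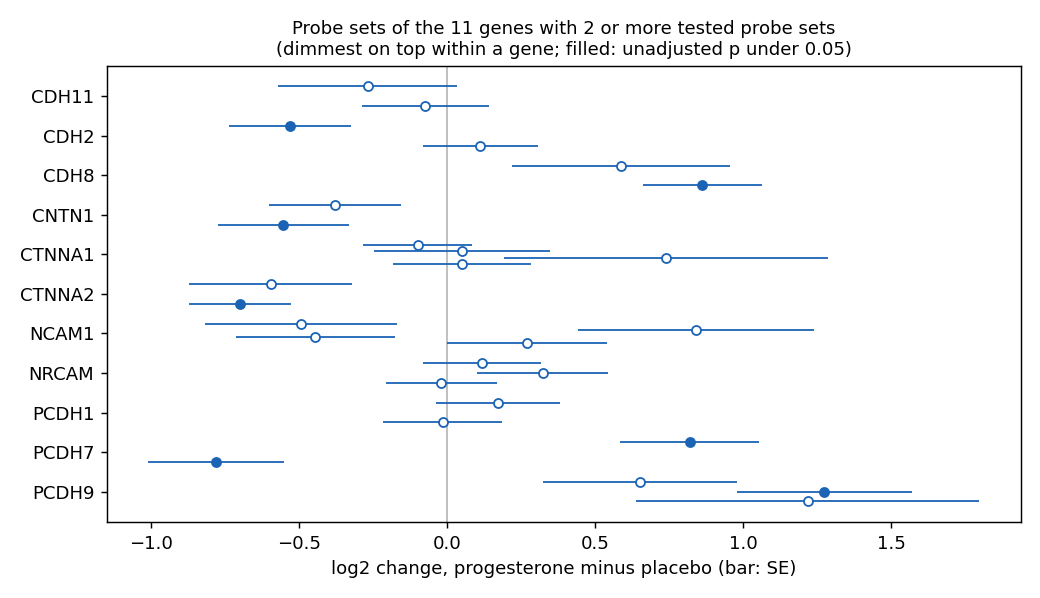
Log2 change of progesterone minus placebo (horizontal axis, bars 1 SE) for each tested probe set of the 11 genes (vertical axis) that had 2 or more, dimmest on top within a gene; filled points have a limma unadjusted p under 0.05. PCDH9 lies to the right for all 3 probe sets, at 0.65 to 1.27, CTNNA2 to the left for both, and the 2 filled points of PCDH7 lie on opposite sides, at 0.82 and -0.78.

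The clustered protocadherins, which give neurons their individual surface code, were few on the array and dim. PCDHA9, PCDHA12, PCDHA13, PCDHGB7 and the pseudogene PCDHB17P were tested with 1 probe set each, and with progesterone their log2 changes ran from -0.21 to 0.32, none under an unadjusted p of 0.05. Genes within such a cluster share sequence, so signal may be split between neighbours. PCDHA13 read 58.3 ± 7.6 with placebo and 75.4 ± 0.88 with both hormones (SD, n = 3), without overlap.

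Cell type markers were read beside these differences. The summed intensity of 6 serotonin neuron genes was 925.9 to 1130 with placebo and 744.2 to 911.5 with progesterone, without overlap. The 5 tested had a median log2 change of -0.45, with 1 higher and 4 lower. At an unadjusted p under 0.05, 2 were lower, the serotonin transporter SLC6A4 at -0.58 and GATA3 at -0.62. SLC18A2 was at -0.45, while FEV at 0.02 and DDC at -0.02 hardly differed from placebo. TPH1 was under the offset on every array, and TPH2 and HTR1A were not analysed here. SLC6A4, the defining marker of the nucleus, had a mean intensity of 370.7 over all arrays. The sum over 7 neuronal genes was 25520 to 29710 with placebo and 28690 to 31290 with progesterone. That of 8 astrocyte genes was 3419 to 7121 and 6495 to 6718. Of the 9 tested astrocyte probe sets, 6 read higher and 3 lower, with a median log2 change of 0.107. At an unadjusted p under 0.05, 2 were lower, GFAP at -0.42 and SOX9 at -0.80, and 0 higher. The oligodendrocyte sum over 7 genes was 17130 to 20280 and 18360 to 25160. The part of these marker differences in the members' readings was not tested.

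The microglial sum over 8 genes was 1154 to 1400 with placebo and 1089 to 1594 with progesterone, and the endothelial sum over 8 genes was 904.9 to 1090 and 780.2 to 1334. For 4 genes of ependyma and choroid plexus it was 295.8 to 426.4 and 249.5 to 370.1, for 5 meningeal genes 3311 to 6055 and 3504 to 4651, for 7 cerebellar genes 2067 to 2273 and 1718 to 2141, and for 2 blood genes 123.5 to 170.7 and 122.6 to 159.7. In each of these lists the ranges overlapped. No listed gene of these 6 cell types was under the offset on every array.

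With estrogen alone, few members stood apart from placebo. Only NRXN3 and a dim probe set of PCDH1 reached an unadjusted p under 0.05, both higher, which is 2 of 54 (3.7%) against 3.16% of all tested probe sets. Past the adjusted threshold there was no member, and the share of all was 0%. The arrays did not overlap for 5 members (9.26%), against 6.09% of all. The count of 2 became 4 without estrogen array 2, 1 without estrogen array 3 and 1 without placebo array 1. The shares of all tested probe sets in these refits were 4.42%, 4.11% and 2.73%. The median log2 change was 0.0027 over the members, with 27 above and 27 below 0.

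NRXN3, a second presynaptic neurexin, read 430.5, 448.7 and 447.5 with estrogen against 208.7, 376.5 and 282.8 with placebo. The estrogen arrays were nearly equal and above all placebo arrays. The log2 change was 0.63 ± 0.20 (SE, adjusted p = 0.9999 by limma). PCDH1, a protocadherin of epithelium and brain, read 72.4, 78.7 and 86.2 with estrogen against 35.2, 56.7 and 54.5 with placebo by its dimmer probe set, a change of 0.60 ± 0.21. The brighter gave -0.09 ± 0.20 with overlapping arrays. The other members without overlap were CDH22, higher at 0.28, and 1 probe set each of CNTN1 and NCAM1, lower at -0.23 and -0.70. The microglial marker sum was 1031 to 1086 with estrogen, under the placebo range, and its part in these readings was not tested.

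**Figure D5:**
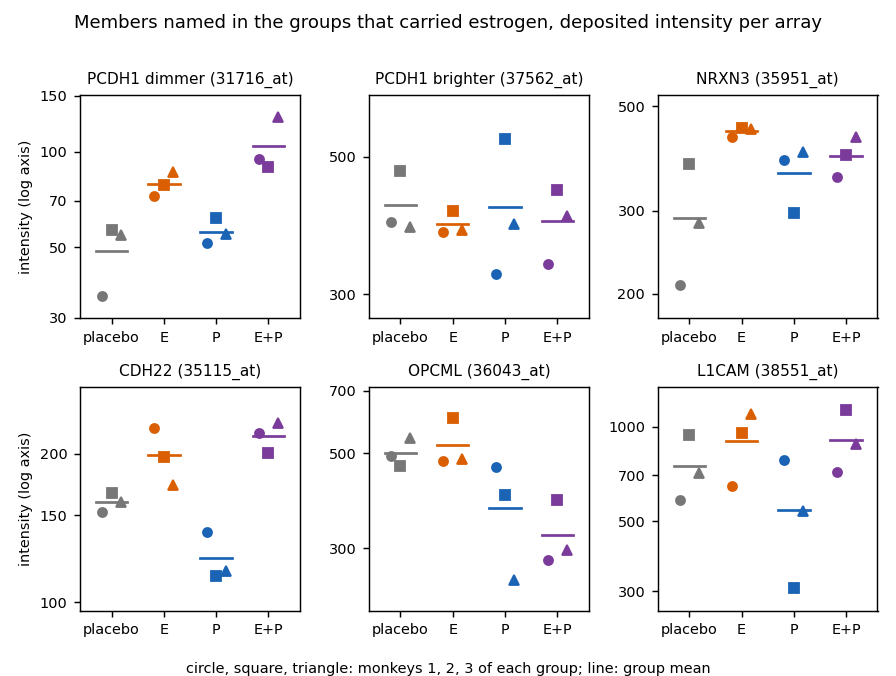
Deposited intensity (vertical axes, log scale) in each of the 12 arrays for 6 probe sets named in the groups that carried estrogen, or belonging to the same genes, by group (horizontal axes; E estrogen, P progesterone, E+P both); symbols are monkeys 1 to 3 and lines are group means. The dimmer probe set of PCDH1 reads 72.4 to 128.2 in the 2 groups with estrogen and at most 61.7 in the other 2, while the brighter shows no such split.

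With both hormones, the dimmer probe set of PCDH1 and CDH22 read higher than with placebo, and CTNNA2 and OPCML read lower. An unadjusted p under 0.05 was reached by 6 of 54 members (11.1%), 3 higher and 3 lower, from 5 genes, against 3.38% of all tested probe sets. Past the adjusted threshold there was none, against 0.0133% of all. The arrays did not overlap for 8 members (14.8%), against 8.61% of all. The count of 6 became 3 (5.56%) without estrogen plus progesterone array 3, against 3.12% of all tested probe sets in that refit. The median log2 change of the members was 0.06, with 33 above and 21 below 0.

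PCDH1 read 94.6, 89.3 and 128.2 with both hormones by its dimmer probe set, above every placebo, progesterone and estrogen array. The log2 change from placebo was 0.94 ± 0.21 (SE, adjusted p = 0.876 by limma), the lowest adjusted p of a member in this comparison. The placebo mean, 48.8 ± 11.8 (SD, n = 3), was itself under the filter's limit, and the brighter probe set gave -0.08 ± 0.20. CDH22 changed by 0.41 ± 0.15 and NRXN3 by 0.46 ± 0.20, both with a limma adjusted p of 0.999. NRXN3 read 353.4, 393.6 and 430.2, so its lowest array overlapped placebo.

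CTNNA2 read 549.6, 530.0 and 418.7 with both hormones by its brighter probe set, below all placebo and estrogen arrays. Its log2 changes were -0.51 ± 0.17 by the brighter and -0.64 ± 0.28 by the dimmer (SE, adjusted p = 0.999 by limma for each). OPCML, the IgLON protein that binds opioids, read 282.3, 388.2 and 297.8, also below all placebo and estrogen arrays, a change of -0.64 ± 0.22. Its second probe set was too dim to test and read 12.5 to 70.1 over the arrays. CTNNA2 and OPCML thus read under placebo in both groups that carried progesterone, in comparisons that share the placebo arrays. CDH22 and the dimmer probe set of PCDH1 read over placebo in both groups that carried estrogen.

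The 2 comparisons of the combined group with a single hormone asked what the second hormone added. Adding progesterone to estrogen gave 3 of 54 members an unadjusted p under 0.05 (5.56%), against 2.87% of all tested probe sets, and none past the adjusted threshold, where the share of all was 0%. OPCML was lower by -0.70 ± 0.22 and CTNNA2 by -0.45 ± 0.17 on the log2 scale, and NRCAM was higher by 0.51 ± 0.22 by 1 probe set. The 2 other probe sets of NRCAM gave -0.11 and 0.31. The arrays did not overlap for 7 members (13%), against 6.37% of all. The count of 3 became 5 without estrogen array 1, 1 without estrogen array 3 and 1 without estrogen plus progesterone array 3. Over all tested probe sets the shares in these 3 refits were 6.33%, 3.17% and 2.75%.

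Against progesterone alone, the combined group read higher for CDH22 and the dimmer probe set of PCDH1, and lower for LSAMP, CDH8 and CDH16. This comparison uses the same progesterone arrays as that of progesterone with placebo. An unadjusted p under 0.05 was reached by 11 of 54 members (20.4%), 5 higher and 6 lower, from 9 genes, against 7.71% of all tested probe sets. Past the adjusted threshold there was none, against 0.0133% of all. The arrays did not overlap for 13 members (24.1%), 6 higher and 7 lower, against 16% of all. CDH22 had the lowest limma adjusted p, at 0.172 with a log2 difference of 0.77 ± 0.15 (SE). It was 0.0381 at a difference of 0.82 in a fit that weighted arrays by quality. With those weights 12 of all 7535 tested probe sets passed the adjusted threshold, against 1 in the main fit.

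PCDH1 by its dimmer probe set was also higher in the combined group than with progesterone alone, by 0.77 ± 0.21. Its brighter probe set had an F test adjusted p of 0.996 (limma). PCDH7 was higher by 0.73 ± 0.23 with its brighter probe set, NRXN2 by 0.56 ± 0.19 and L1CAM by 0.82 ± 0.32. Errors are SE, and the limma adjusted p of these higher readings ran from 0.413 to 0.548. L1CAM read 717.7, 1131 and 878.4 against 780.2, 306.4 and 539.5, which overlapped by 1 array on each side. Lower were LSAMP by -0.96 ± 0.20 (adjusted p = 0.195 by limma), CDH16 by -1.27 ± 0.41, PCDH9 by -0.92 ± 0.30 with its middle probe set, and CDH8 by -0.64 ± 0.20 and -1.11 ± 0.37. The larger CDH8 value came from the dimmer probe set, whose combined arrays read 18.9, 59.0 and 54.6, with the lowest on the array of high ribosomal signal. PCDH7 by its dimmer probe set was lower too, at -0.62.

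Across the 12 arrays, 8 of 54 members (14.8%) had all 3 progesterone arrays above or below all 9 others, against 3.72% of all tested probe sets. Above were LSAMP, CDH16, both tested probe sets of CDH8 and the brightest of PCDH9, and below were CDH22, NRXN2 and the brighter probe set of PCDH7. This count was chosen after the data were seen. It describes the same progesterone arrays as the comparisons above and adds no further evidence to them.

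The interaction, the log2 change with both hormones minus the sum of the changes with each, asked whether the hormones added up. An unadjusted p under 0.05 was reached by 10 of 54 members (18.5%), 4 higher and 6 lower, from 9 genes, against 4.99% of all tested probe sets. None passed the adjusted threshold, where the share of all was 0%, and the lowest adjusted p was 0.914. The count became 6 without placebo array 1, 5 without estrogen array 3 and 6 without estrogen plus progesterone array 2. Of all tested probe sets, 4.62%, 4.91% and 4.95% were under that p in these refits. On the negative side were CDH16 at -1.89 ± 0.58, PCDH9 at -1.12 ± 0.42 with its middle probe set, LSAMP at -0.91 ± 0.28, PCDH7 at -0.91 ± 0.33 with its dimmer probe set and CDH8 at -0.84 ± 0.28 with its brighter (SE). On the positive side were CDH2 at 0.71 ± 0.29 with its dimmer probe set, CNTN1 at 0.69 ± 0.31 with its brighter, NRXN2 at 0.68 ± 0.27 and CDH22 at 0.49 ± 0.22. These values draw on the same progesterone arrays as well.

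Genes that work with the members were read from 6 lists of 82 genes, of which 52 were tested with 73 probe sets. None passed the adjusted threshold in any comparison. At an unadjusted p under 0.05, 3 probe sets were higher and 0 lower with estrogen, 4 and 3 with progesterone, 5 and 3 with both, 0 and 3 for both against estrogen, 7 and 6 for both against progesterone, and 2 and 4 for the interaction. As shares of the 73 probe sets these were 4.11%, 9.59%, 11%, 4.11%, 17.8% and 8.22%. Over all tested probe sets they were 3.16%, 8.24%, 3.38%, 2.87%, 7.71% and 4.99%, so the counts with estrogen and with progesterone were near the background. In the list of beta-catenin turnover and targets, progesterone gave 14 of 18 probe sets, from 10 genes, a positive sign, against 50.4% of all tested probe sets. At an unadjusted p under 0.05 there were 2 of the 18 (11.1%), against 8.24% of all. The 4 of negative sign were 2 of the 3 BTRC probe sets at -0.59 and -0.54, LEF1 at -0.56 and 1 of MYC at -0.18. GSK3B, the kinase that marks beta-catenin for destruction, was at 0.98 and 0.64 by its 2 tested probe sets. The target cyclin CCND1 was at 0.90 by its dimmest probe set and at 0.12 and 0.10 by the brighter ones. ADAM10, a protease that sheds cadherins from the surface, was at 0.61 and 0.25. The atypical cadherins CELSR2 and FAT1 were at -0.36 and -0.60.

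At the synapse, the scaffold DLG4, which holds neuroligins at the postsynaptic density, was at 1.57 ± 0.61 with progesterone (SE). It was also above placebo with estrogen, at 0.72 ± 0.61, and with both hormones, at 1.34 ± 0.61. For both hormones against progesterone it was at -0.23. SHANK2, another scaffold, was at -0.79 ± 0.27 with progesterone, -0.25 with estrogen and -0.31 with both hormones. CNTNAP2, a neurexin relative that pairs with contactins, was at 0.62 with estrogen, 0.64 with both hormones, and 0.78 for both against progesterone. BTRC, which tags beta-catenin for the proteasome, gave opposite readings for both hormones against progesterone, -1.42 ± 0.23 (adjusted p = 0.0944 by limma) and 1.06 ± 0.39 from 2 of its 3 probe sets. Among the junction proteins, NECTIN3 was lower in all 3 comparisons of the combined group, at -0.42 against placebo, -0.65 against estrogen and -0.63 against progesterone, in comparisons that share the combined arrays.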

How the data were processed

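Intensities per probe set on a linear scale were deposited by the authors for 12 arrays; from the values, each array had been scaled to a mean of about 200.1 after trimming 2% from each end. The summarising software is not given in the sources used here. Values were converted to log2(intensity + 8.257), the offset being the pooled 10th percentile, which understates changes of dim probe sets, and quantile normalized. Control probe sets (67) and the lowest 40% by mean were left out. Group means over all arrays were fitted with limma 3.58.1 (R 4.3.3), 2-sided, with Benjamini-Hochberg adjustment over 7535 probe sets at 0.05. The spread covers 3 separate monkeys per group and sets the precision.

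Gene symbols came from the platform annotation; 42 of 48 member symbols matched a macaque RefSeq gene. Members, gene lists and tests were chosen with earlier results of these data known. Named were, per comparison, up to 5 higher and 5 lower members of smallest unadjusted p under 0.05, their genes' other probe sets, and a fixed set of main genes by level. Deposited intensities are printed. Tested on simulated data for progesterone against placebo over 7535 probe sets, the fit recovered 100% of 93 changes of size 2 and 42.6% of 94 of size 1 on the log2 scale, with 5 false calls. The simulation planted 100 changes of each size, in probe sets above the filter, and used independent noise. Each probe set's variance was averaged with the median variance, so spreads differed less than in the data. The members' SE ran from 0.153 to 0.578 in this comparison. The adjusted threshold is looser with many true changes, so recovery may be lower in these data, where 3 probe sets passed in this comparison. The labels number the monkeys 1 to 3 in every group. Same-numbered estrogen and estrogen plus progesterone arrays deviated together (correlations 0.407, 0.296 and 0.133, the first between the arrays of high ribosomal signal). Unlike numbers did so too, at 0.207 for estrogen 3 with combined array 2 and 0.119 for estrogen 2 with combined array 3. Deviations were taken from the mean of each group of 3, so 2 alike arrays numbered 1 also make the others correlate. The labels state no pairing, and whether the numbers mark one was not tested. No other 2 groups had every same-numbered pair over 0.1. A fit of the estrogen and combined groups with the number as a block, added after the data were seen, gave 0 members past the threshold. It gave 3 of 54 at an unadjusted p under 0.05, and the share of all tested probe sets was not computed there. Without the block, these 2 groups alone also gave 3 (5.56%), against 2.59% of all. Alternatives covered offset, normalization, filter, array weights, replicate block and each array left out.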

Additional observations from a re-analysis of the deposited data

How the results depend on the processing

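None of the 40 log2 changes that the rule names by p changed sign under the alternatives, and 895 refitted values of them stayed on the same side of the threshold while 2 crossed it; log2 changes of other members were not refitted one by one. The count of members past the adjusted threshold stayed at 0 in 158 refits. It became 1 for both hormones against progesterone with array weights (CDH22, limma adjusted p = 0.0381). It also became 1 for progesterone against placebo without both arrays of high ribosomal signal (PCDH9, limma adjusted p = 0.0423). Over all 7535 tested probe sets, the calls rose from 1 to 12 in the first refit and from 3 to 11 in the second. The cause was not tested. Over the alternatives the adjusted p of LSAMP with progesterone ran from 0.0507 to 0.541, of PCDH9 by its middle probe set from 0.0423 to 0.687, and of CDH22 for both hormones against progesterone from 0.0381 to 0.627. Over all groups, the deviations of same-numbered arrays correlated at a mean of 0.0309 (-0.216 to 0.407 over 18 pairs, 5 above 0.1) and those of other numbers at -0.0137. With the replicate block over all arrays, the count of members past the threshold was 0 in each comparison, as in the main fit. The lowest limma adjusted p of a member was then 0.192, for progesterone against placebo. Over all tested probe sets, the block took the calls from 3 to 0 for progesterone against placebo. For both hormones against progesterone they went from 1 to 0, and for both against placebo they stayed at 1. Unadjusted counts moved by over 1.5 times in 15 refits, of which those from 1 array left out stand beside their counts above. Leaving out the lowest 60% by mean left 36 members. It gave 6 (16.7%) for both hormones against progesterone and 4 (11.1%) for the interaction. For these 2 comparisons the shares of all tested probe sets were 8.02% and 4.26%. The F test gave 7 of the 36, against 11 of 54 (20.4%) in the main fit. Its share of all tested probe sets in this refit was not computed. With estrogen the count became 4 (7.41%) with array weights and 5 (9.43%) when both high-ribosomal arrays were left out. The shares of all tested probe sets were then 5.18% and 5.11%. The median over the members ran from -0.0179 (lowest 60% by mean left out) to 0.0492 with progesterone, from -0.0417 to 0.0862 with estrogen and from 0.0206 to 0.0886 with both hormones. The members had 3 arrays per group and a median SE of 0.23. Log2 changes of 1 were often missed in the simulation, whose spreads were drawn toward the median.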

Other observations

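A probe set of NCAM1 too dim to test stood apart with progesterone and was chosen after its values were seen. It read 57.5, 28.0 and 67.6 there, against 13.7, 11.4 and 12.6 with placebo, 35.2, 12.1 and 8.31 with estrogen and 15.4, 14.3 and 22.6 with both hormones. Progesterone array 2 lay under estrogen array 1, so the progesterone arrays were not above all others. In a fit with no filter its log2 change from placebo was 1.38 (limma adjusted p = 0.338). The brightest probe set of the same gene changed by 0.27.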
